A study of Mus musculus with 12 samples.

Results

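Imprinted genes are expressed from only the maternal or only the paternal copy, in some cases only in certain tissues or for certain products. Many of them control growth before and after birth. Copy of origin was not measured here. Igf2, H19, Dlk1, Mest, Peg3, Plagl1, Cdkn1c, Grb10, Igf2r and Gnas belong to this class and were examined as a set of 10 genes of the 18258 genes measured. They were taken as every non-control probe of the array that carries one of these symbols or an older name of it, which gave 25 probes, at least 1 for each gene. Of these, 20 passed the brightness filter, and each of the 10 genes kept at least 1 probe.

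The hearts came from male mice of C57BL/6 background, 3 in each of 4 groups, with 1 array per heart. The groups were cardioGRMRdKO at 2 months, cardioGRMRdKO at 1 month, dflox at 2 months and dflox at 1 month. All of the mice carried floxed glucocorticoid receptor and mineralocorticoid receptor alleles, and cardioGRMRdKO mice, called knockout here, also carried Cre under the αMHC promoter, which acts in cardiomyocytes. The dflox mice were littermates without Cre, so receptor loss and Cre itself cannot be told apart, and a whole heart holds other cell types besides those the promoter drives.

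In mice the paternally expressed Igf2 encodes a fetal growth factor, and Igf2r, expressed from the maternal copy, encodes the receptor that takes this factor up for degradation. H19 is a noncoding RNA from the maternal copy of the Igf2 domain, and Cdkn1c, in a neighbouring domain, encodes a cell cycle inhibitor. Several members of the class are known to be high in fetal and young tissues and to fall as growth slows after birth.

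Whole hearts showed their cardiomyocyte markers at a mean log2 level of 6.61 to 7.08 in every heart. The lowest was knockout 2-month replicate 3, with 8 of 10 markers well above background, and the next was 6.82. Marker means leave out a marker without a usable spot, so they can rest on unlike sets of markers. Nr3c1, the glucocorticoid receptor gene, fell 2.15-fold in knockout hearts at 2 months (log2 difference -1.10, adjusted p = 0.00565 by limma). At 1 month Nr3c1 gave -0.73 and did not pass (adjusted p = 0.119), and Nr3c2, the mineralocorticoid receptor gene, gave -0.46 at 2 months (adjusted p = 0.651) and 0.06 at 1 month (adjusted p = 1.0). Levels are log2 intensities relative to the 75th percentile of the same array, so 0 is that percentile and a difference of 1 is a doubling. A gene was called at an adjusted p under 0.05 over all 18258 genes. The 12 arrays lay on 3 slides. At 1 month 0 knockout arrays and all 3 dflox arrays had outer places on their slides, and at 2 months 1 knockout array and 2 dflox arrays did. Place could therefore be fitted as a term, though the 1-month arrays alone cannot tell it apart from genotype. With place in the fit, 9 genes were called between the genotypes at 1 month, against 179 without it, and 0 members in either fit. Markers of airway epithelium, a tissue that is not heart, varied widely between hearts. Their mean log2 level ran from -4.19 to 1.59 in knockout hearts at 2 months and from -4.31 to -1.45 at 1 month. In dflox hearts it ran from -4.11 to 2.28 at 2 months and from 0.89 to 1.78 at 1 month. Foxj1 and Sftpc, which enter these means, passed the filter only through the dflox hearts at 1 month.

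Probe sequences are shown for genes whose probes are compared below, as the scanner files give them, 5′ to 3′, with mm7 coordinates. The H19 probes are on chromosome 7, minus strand, chr7:139003144-139003203 for probe 1 and chr7:139003393-139003540 for probe 2, whose 60 bases span 148 bases of genome. The Grb10 probes are on chromosome 11, minus strand, chr11:11922579-11922624 for the printed part of probe 2, which starts at the first ATG of the probe (capitals), and chr11:11885585-11886233 for probe 3. Gnas probe 1 lies at chr2:174086289-174087618, plus strand, and spans 1330 bases of genome.
H19 probe 1: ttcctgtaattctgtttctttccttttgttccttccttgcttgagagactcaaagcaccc
H19 probe 2: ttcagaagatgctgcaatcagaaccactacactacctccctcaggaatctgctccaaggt
Grb10 probe 2: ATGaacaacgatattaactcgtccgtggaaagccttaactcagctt
Grb10 probe 3: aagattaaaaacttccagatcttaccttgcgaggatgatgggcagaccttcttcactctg
Gnas probe 1: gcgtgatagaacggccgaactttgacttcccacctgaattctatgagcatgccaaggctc

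Igf2 and Mest were the members called lower with age. Averaged over the genotypes, 7 of 10 members were below 0, against 45.5% of all genes. Igf2 fell 1.73-fold in knockout hearts and 1.87-fold in dflox hearts, and Mest, which encodes a protein of the hydrolase family, fell 2.43-fold over both genotypes. In knockout hearts 1 of the 10 members was called lower, against 0.186% of all genes, and in dflox hearts 1 of 10, against 0.246%. Averaged over the genotypes 2 of 10 were called lower, against 2.61% of all genes. In these 3 comparisons 0 members were called higher, against 0.192%, 0.307% and 1.99% of all genes.

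Igf2 stood at 2.21, 2.38 and 1.97 in knockout hearts at 2 months, against 3.02, 2.88 and 3.05 in knockout hearts at 1 month. In dflox hearts it stood at 2.33, 2.56 and 2.43 at 2 months, against 3.43, 3.21 and 3.39 at 1 month. In each genotype every older heart was below every younger one. The log2 difference was -0.79 (SE 0.125, adjusted p = 0.0355) in knockout and -0.91 (SE 0.125, adjusted p = 0.0184) in dflox hearts by limma, n = 3 hearts a group. The 2 age effects differed by 0.11, with a 95% interval from -0.28 to 0.51 and an adjusted p of 0.936. In whole hearts fewer cells of a type and less RNA per cell cannot be told apart.

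The call of Igf2 in knockout hearts was lost when any 1 heart other than dflox 1-month replicate 2 was left out, with log2 differences from -0.89 to -0.69 over the 12 fits that leave out a heart. In dflox hearts it was lost without dflox 1-month replicate 1 or 3 or dflox 2-month replicate 2 or 3. Averaged over the genotypes Igf2 fell by 0.85 on the log2 scale (SE 0.0887, adjusted p = 0.0016), and this call held in all 23 alternatives. Within slides, knockout hearts gave -0.91, -0.84 and -0.63 on slides 1, 2 and 3, and dflox hearts gave -1.10 on slide 1, the only slide with both ages. The second Igf2 probe (chromosome 7, 139078490 to 139078549) fell by 0.72 in knockout and by 1.00 in dflox hearts (adjusted p = 0.04 and 0.00825 over all probes, where 0.156% and 0.159% of probes were called lower). Its call in knockout hearts was lost with place as a term (adjusted p = 0.0934) and when any 1 heart other than dflox 2-month replicate 3 was left out. That call was also lost under median scaling (adjusted p = 0.111), with slide as a fixed block (adjusted p = 0.0714) and with the replicate block (adjusted p = 0.0888). Its call in dflox hearts held with any 1 heart left out and was lost with slide as a fixed block (adjusted p = 0.0715). The brightest probe (chromosome 7, 139078075 to 139078135) has 10 spots on each array, and the SD of its log2 signal over the usable spots was 0.0341 to 0.23.

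The groups ranked, from low to high Igf2, as knockout at 2 months (2.19 ± 0.207), dflox at 2 months (2.44 ± 0.115), knockout at 1 month (2.98 ± 0.0894) and dflox at 1 month (3.34 ± 0.117, SD, n = 3 each). Knockout and dflox hearts overlapped at 2 months and did not overlap at 1 month. Neither genotype difference passed the test, at -0.25 at 2 months (adjusted p = 0.363) and -0.36 at 1 month (adjusted p = 0.327), the second being -0.44 with place as a term (adjusted p = 0.894).

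Mest (chromosome 6, 30680425 to 30680484) stood at 0.52, 0.99 and -0.04 in knockout hearts at 2 months, against 2.25, 1.31 and 1.94 in knockout hearts at 1 month. The dflox hearts stood at 0.54, 1.16 and 1.04 at 2 months, against 2.52, 1.80 and 2.09 at 1 month. The older hearts were again all below the younger ones. Neither genotype passed alone, at -1.34 (adjusted p = 0.115) in knockout and -1.22 (adjusted p = 0.117) in dflox hearts, while the average of both, -1.28 (SE 0.225, adjusted p = 0.0137), did. That call also held in all 23 alternatives. The genotypes overlapped at both ages, and the difference of the 2 age effects was -0.12 (95% interval -1.12 to 0.88).

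**Figure D1:**
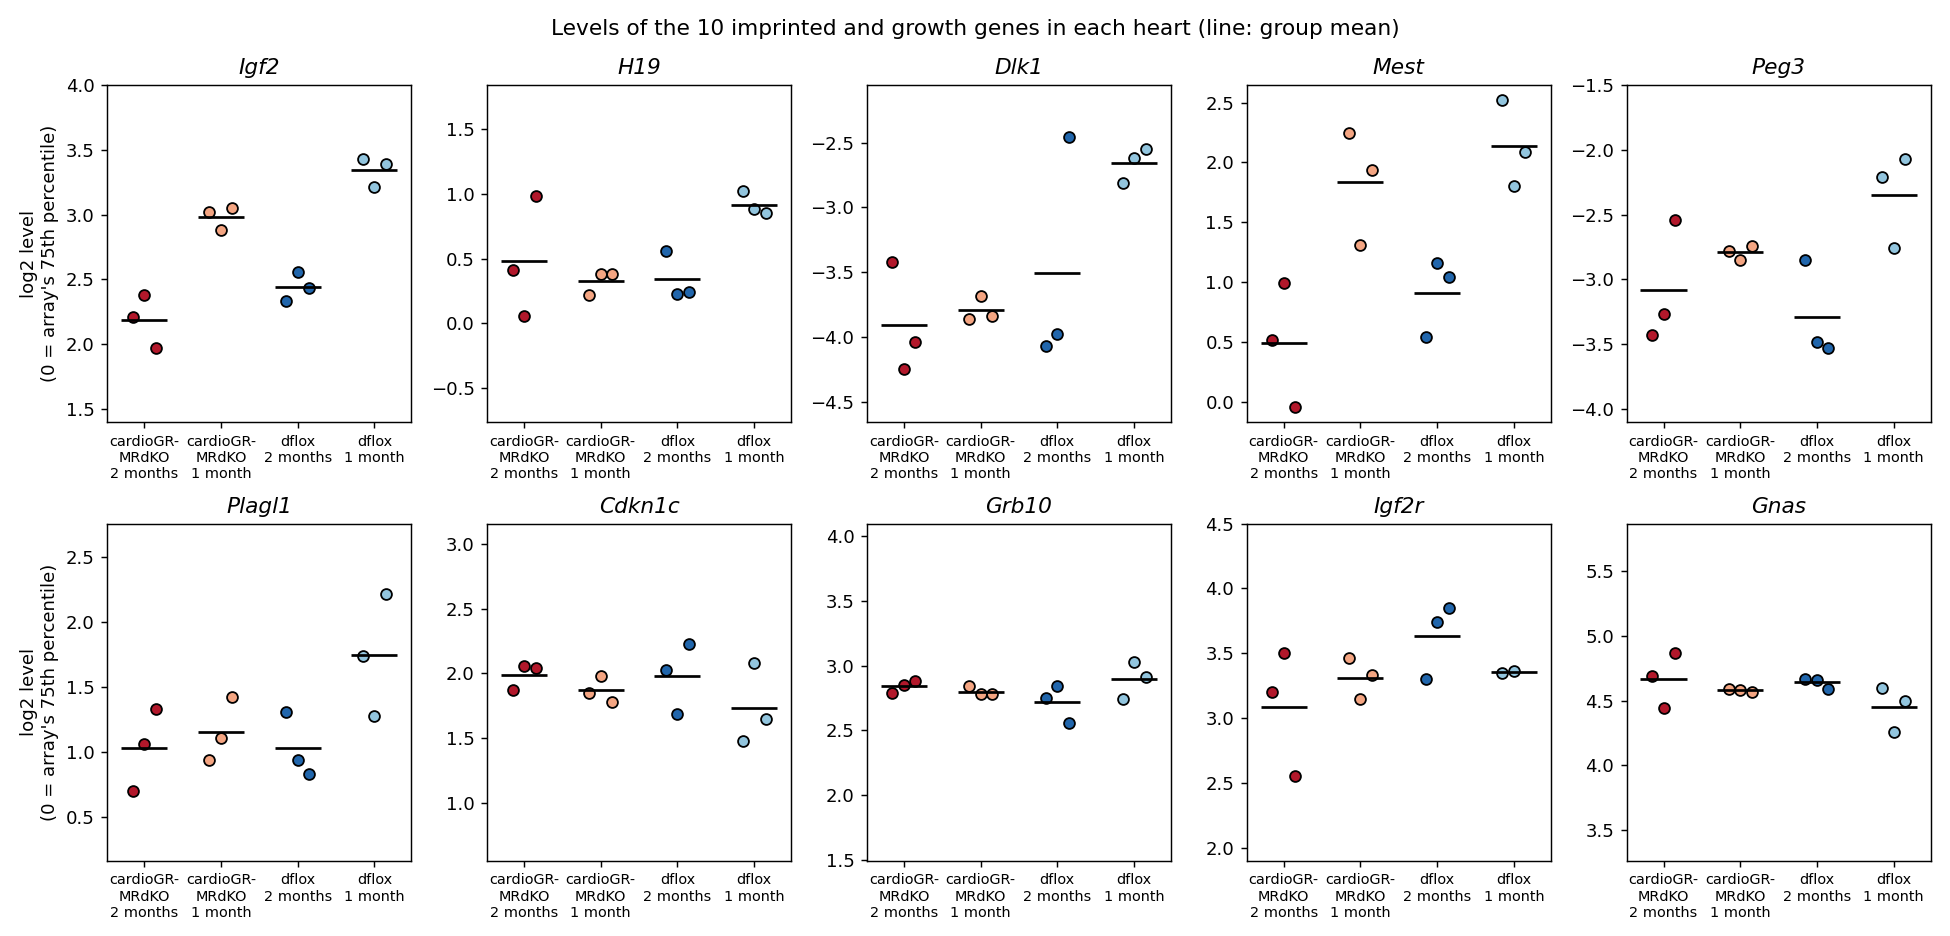
Log2 level of each gene in each heart, 1 point per heart and 1 panel per gene, with the group mean as a line. Vertical axes are log2 intensity relative to the array's 75th percentile. They differ between panels in position, and the axis of the Mest panel also spans more. Igf2 and Mest are lower in every 2-month heart than in every 1-month heart of the same genotype.

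H19, Dlk1, Peg3 and Plagl1 gave lower values at 2 months than at 1 month in dflox hearts, none past the test over genes. The difference of the age effects between the genotypes had an adjusted p of 0.934 for each of these 4 genes. That was the smallest adjusted p of all genes in this comparison, so it does not show that the age effects were alike. Unadjusted p was 0.0281 for H19, 0.194 for Dlk1, 0.115 for Peg3 and 0.126 for Plagl1. Dlk1 encodes a membrane protein of the Notch ligand family, and Peg3 and Plagl1 encode zinc finger proteins. On each of these genes the knockout hearts at 1 month were on average below the dflox hearts of that age.

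H19 probe 1 gave 0.41, 0.06 and 0.98 in knockout hearts at 2 months, against 0.22, 0.38 and 0.38 at 1 month. In dflox hearts it gave 0.56, 0.23 and 0.24 at 2 months, against 1.02, 0.88 and 0.85 at 1 month. Knockout replicate 3 at 2 months was the highest of the knockout hearts, and the older dflox hearts were all below the younger ones. The log2 difference with age was 0.15 (adjusted p = 0.858) in knockout hearts, or -0.09 without that replicate, and -0.57 (SE 0.202, adjusted p = 0.245) in dflox hearts. Their difference, 0.73, had an unadjusted p of 0.0281 and an adjusted p of 0.934. With age, probe 2 gave 0.03 in knockout hearts (adjusted p = 0.971 by limma over all probes). In dflox hearts it gave -0.76 (SE 0.146, adjusted p = 0.0606), with no overlap. The difference of these 2 age effects, 0.79, had an unadjusted p of 0.00322 and an adjusted p of 0.936.

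H19 probe 2, printed above, gave -0.74, -0.64 and -0.71 in knockout hearts at 1 month, against 0.02, 0.02 and 0.27 in dflox hearts. Over all probes this was called lower in knockout hearts (log2 difference -0.80, SE 0.146, adjusted p = 0.0368), where 0.404% of probes were. With place on the slide as a term the difference was -0.64 and was not called (adjusted p = 0.701). The call was also lost under median scaling (adjusted p = 0.189), with slide as a fixed block (adjusted p = 0.0857), and without any 1 heart other than knockout 2-month replicate 2 or 3 or dflox 2-month replicate 2. Over the 12 fits that leave out a heart the difference ran from -0.84 to -0.72. At 2 months the same probe gave a difference of -0.02 (adjusted p = 0.966). Probe 1 gave -0.59 at 1 month and was not called over genes (adjusted p = 0.32), with no overlap between the genotypes, and over the 23 alternatives its difference was -0.69 to -0.38 with an adjusted p of 0.0809 to 0.985.

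Dlk1 (chromosome 12, 106981689 to 106981748) stood at -3.42, -4.25 and -4.04 in knockout hearts at 2 months, against -3.86, -3.68 and -3.84 at 1 month. In dflox hearts it stood at -4.07, -3.98 and -2.46 at 2 months, against -2.81, -2.62 and -2.55 at 1 month. The dflox 2-month replicate 3 was as high as the dflox hearts at 1 month, and it was also the highest heart for airway markers, at 2.28. Knockout replicates 1 and 3 at 2 months, at 1.59 and 1.58 for these markers, had Dlk1 at -3.42 and -4.04. Dlk1 was 2.19-fold lower in knockout than in dflox hearts at 1 month, a log2 difference of -1.13 (SE 0.373, adjusted p = 0.289), with no overlap, or -0.81 with place as a term (adjusted p = 0.985). Without dflox 2-month replicate 3 that 1-month difference was called (adjusted p = 0.0307). That heart is not in the 1-month comparison, so the difference stayed at -1.13 and only the shared estimate of spread and the adjustment changed. The age effect averaged over genotypes was also called without that heart, at -0.73 (adjusted p = 0.0319) against -0.48 with it. The dimmer Dlk1 probe 2 gave -0.86 for the genotypes at 1 month (adjusted p = 0.531), also without overlap, and 0.08 for age over both genotypes (adjusted p = 0.899).

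Over the 12 hearts the correlation of Dlk1 with the mean of 8 airway markers was 0.751, and 0.781 after each group's mean was taken off. With 8 cartilage markers it was 0.792 and 0.604. With 9 epicardial markers Dlk1 gave 0.795 and 0.637. H19 gave 0.631 and 0.411 with the airway markers, 0.658 and 0.158 with the cartilage markers and 0.718 and 0.507 with the epicardial markers. Hearts share slides and groups. The cartilage markers had a mean level of -3.05 to -2.52 in knockout hearts at 1 month and -2.02 to -1.23 in dflox hearts at 1 month. The epicardial markers had a mean level of -1.27 to -0.74 in knockout hearts at 1 month and -0.44 to -0.26 in dflox hearts at 1 month, and all 10 were well above background in each of these hearts. Of 9 airway markers, 5 to 8 were well above background in the knockout hearts at 1 month, and 9 in each dflox heart of that age. Foxj1 and Sftpc among these 9 passed the filter only through the dflox hearts at 1 month, so this count is not read as a result. The part of these markers in the Dlk1 and H19 values was not tested.

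**Figure D2:**
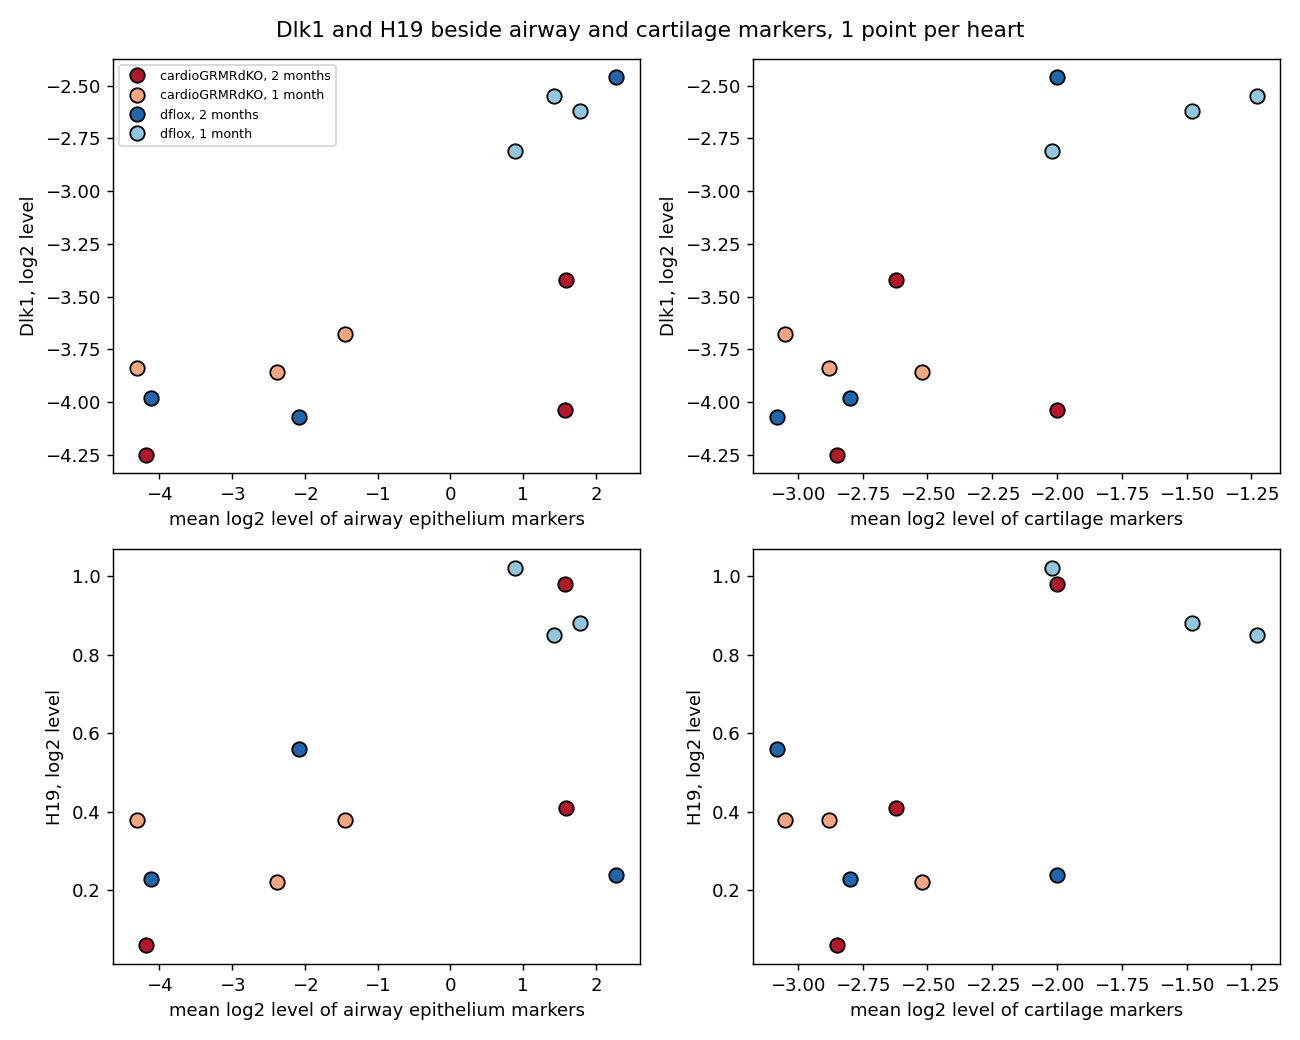
Log2 level of Dlk1 (top) and H19 (bottom) against the mean log2 level of airway epithelium markers (left) and cartilage markers (right), 1 point per heart, coloured by group. The 3 dflox hearts at 1 month and dflox 2-month replicate 3 are high for Dlk1 and for the airway markers, while H19 is at 0.24 in that replicate. The knockout hearts at 2 months include 2 with high airway markers and Dlk1 at -3.42 and -4.04.

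Peg3 (chromosome 7, 6266913 to 6266972) stood at -3.43, -3.27 and -2.54 in knockout hearts at 2 months, against -2.78, -2.85 and -2.74 at 1 month. The dflox hearts had -2.85, -3.48 and -3.53 at 2 months, against -2.21, -2.76 and -2.07 at 1 month. The older dflox hearts were all lower than the younger ones, and the knockout hearts overlapped. The difference was -0.29 in knockout (adjusted p = 0.761) and -0.94 in dflox hearts (adjusted p = 0.154), and -0.61 on average (SE 0.19, adjusted p = 0.102). Without knockout 2-month replicate 3 the average was -0.75 and was called (adjusted p = 0.039). Peg3 probe 2 gave -0.08 on average (adjusted p = 0.879), and Peg3 probe 3 was well above background on 0 arrays.

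Plagl1 (chromosome 10, 12831831 to 12831890) stood at 0.70, 1.06 and 1.33 in knockout hearts at 2 months, against 0.94, 1.11 and 1.42 at 1 month. Plagl1 in dflox hearts was at 1.31, 0.94 and 0.83 at 2 months, against 1.74, 1.28 and 2.22 at 1 month. Both genotypes overlapped between the ages. The age difference was -0.13 (95% interval -0.68 to 0.43) in knockout and -0.72 (95% interval -1.28 to -0.16, adjusted p = 0.245) in dflox hearts. Its second probe gave 0.08 and 0.13, while a test between the probes was not run.

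Cdkn1c, Grb10, Igf2r and Gnas, on their brightest probes, passed no test with age or genotype. Grb10 encodes an adaptor that inhibits insulin and IGF receptor signalling, and Gnas encodes the stimulatory G protein alpha subunit among other products. Their average age differences were 0.18 (95% interval -0.09 to 0.46) for Cdkn1c, -0.07 (-0.23 to 0.10) for Grb10, 0.02 (-0.38 to 0.42) for Igf2r and 0.14 (-0.06 to 0.34) for Gnas. Igf2r lacked a usable spot in dflox 1-month replicate 3, so its dflox group at 1 month held 2 hearts. At 2 months Igf2r stood at 3.20, 3.50 and 2.55 in knockout hearts and 3.30, 3.74 and 3.85 in dflox hearts, with a log2 difference of -0.55 (adjusted p = 0.312).

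Grb10 had 3 measured probes. Probe 1 (chromosome 11, 11882970 to 11883029) held between 2.56 and 3.03 in all 12 hearts. Probe 2, upstream of both others on the gene's strand, stood at -2.16, -2.18 and -2.80 in knockout hearts at 2 months, against -1.60, -1.61 and -1.51 at 1 month. The same probe in dflox hearts gave -2.19, -1.96 and -2.45 at 2 months, against -2.04, -1.89 and -1.67 at 1 month. Over both genotypes it fell by 0.57 on the log2 scale (SE 0.134, adjusted p = 0.0444 over all probes, where 2.1% of probes were called lower). That call was lost under normexp background correction (-0.46, adjusted p = 0.0776), with slide as a fixed block and with the replicate block. It was also lost without any 1 heart other than knockout 2-month replicate 3. Probe 3 gave -0.11 (adjusted p = 0.587). No test compared the probes with each other.

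Gnas had 8 probes, of which 4 passed the filter. Probe 1, whose record names the stimulatory G protein alpha subunit, gave an average age difference of 0.14, and probe 2, whose record names the GNAS complex locus, gave 0.06. Probe 3 (chromosome 2, 174077210 to 174077269), whose record describes a noncoding RNA that overlaps exons 1A, 1 and 2 of Gnas, gave -0.50 (SE 0.18, adjusted p = 0.157). Gnas probe 4 gave 0.15 (adjusted p = 0.798). Of the 4 probes that did not pass the filter, probe 5 was well above background on 7 arrays and probe 6 on 2, and probes 7 and 8 on 0, with probe 7 recorded as a fragment of the extra-large subunit.

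**Figure D3:**
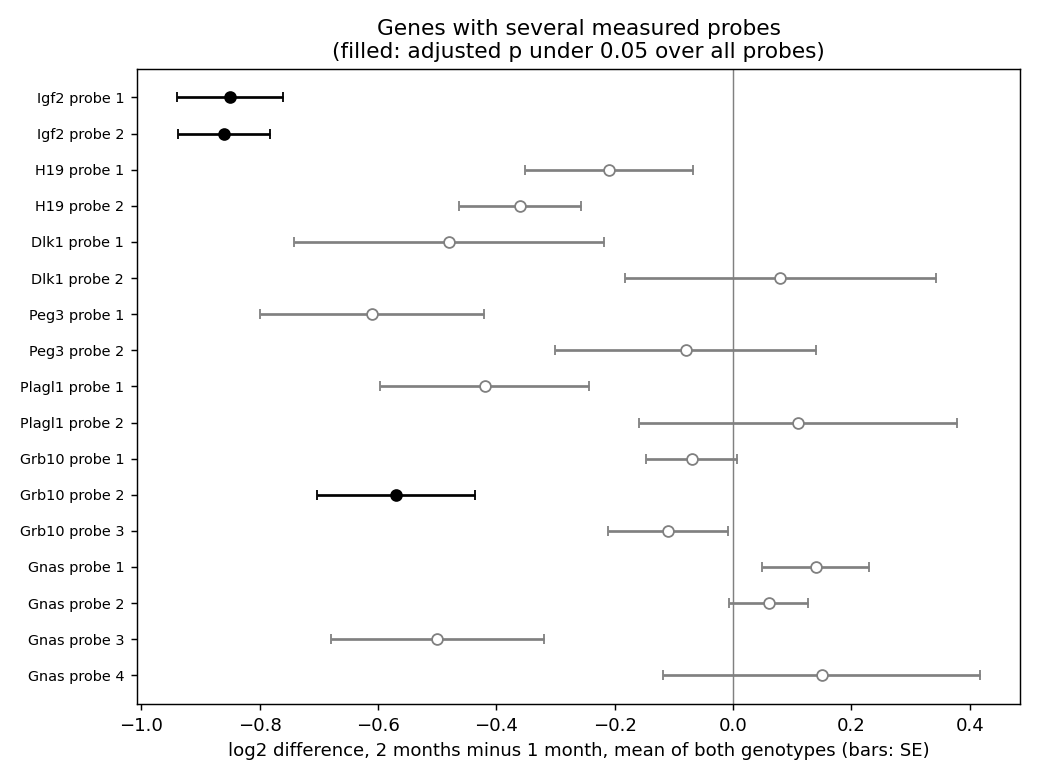
Log2 difference, 2 months minus 1 month averaged over the genotypes, of every measured probe of the genes with several, with its SE as a bar and filled points where the adjusted p over all probes was under 0.05. Both Igf2 probes and Grb10 probe 2 are filled, and the other Grb10 probes sit at -0.07 and -0.11. No test compared probes of a gene.

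Between the genotypes no member passed the test over genes, while H19 probe 2 did over probes at 1 month. At 1 month 0 of 10 members were called, against 0.98% of all genes, at 2 months 0 of 10, against 2.31%, and for the difference of the age effects 0 of 10, against 0.0%. At an unadjusted p under 0.05 the counts were 4, 1 and 1 members, against 9.4%, 15.6% and 3.53% of all genes. At 1 month 8 of 10 members were below 0, against 50.3% of all genes. At that age 3 did not overlap, all lower, against 9.84% of all genes that were lower without overlap. Place on the slide and genotype coincide in the 1-month arrays. At 2 months 0 did not overlap, against 17.7%. The median over the 10 members was -0.33 at 1 month, against 0.00 over all genes, and 0.00 at 2 months, against -0.10.

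With age, the members' median was -0.12 in knockout hearts, against -0.02 over all genes, and -0.65 in dflox hearts, against 0.05. Members without overlap between the ages, all lower, numbered 2 of 10 in knockout hearts, against 10.8% of all genes, and 4 of 10 in dflox hearts, against 8.68%. Over both genotypes 2 of 10 did not overlap, against 2.0%.

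**Figure D4:**
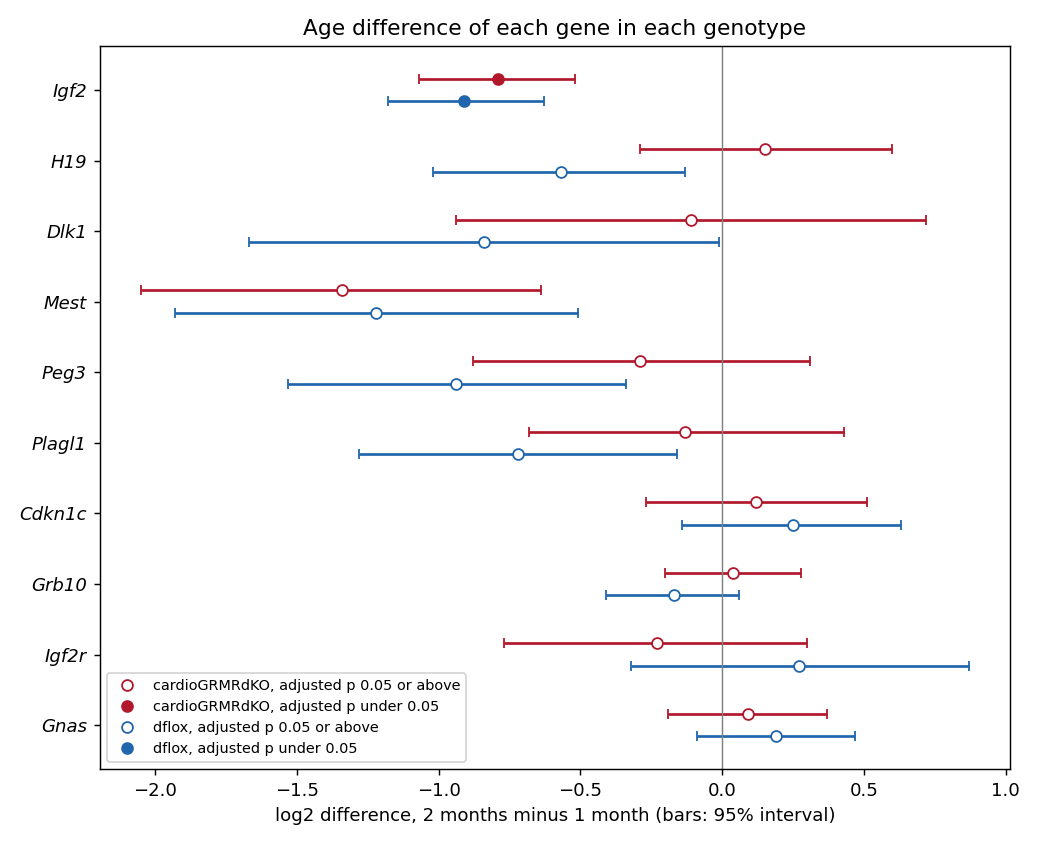
Log2 difference of each gene between 2 months and 1 month, in knockout hearts (above) and dflox hearts (below), with 95% intervals from limma. Filled points passed at an adjusted p under 0.05, which only Igf2 did in a single genotype.

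Of 67 other imprinted genes 49 were measured, with a median age difference over both genotypes of -0.01 against 0.02 over all genes. Of the 49, 5 were called lower with age and 0 higher, against 2.61% and 1.99% of all genes. The 5 include Mirg and Sfmbt2, which passed the filter only through 1-month groups, so the count is not read as a result about the list. Kcnq1, a potassium channel gene, fell by 0.39 on the log2 scale (adjusted p = 0.014), and the call was lost under normexp background correction. Ddc, which encodes an enzyme of amine synthesis, fell by 0.69 (adjusted p = 0.0184, or 0.0559 without dflox 1-month replicate 1). Mirg, a microRNA host gene of the Dlk1 domain, gave -0.97 (adjusted p = 0.00363), but it was well above background on 2 of 3 arrays in each 2-month group, passed the filter only through the 1-month groups, and gave -0.28 under normexp (adjusted p = 0.419). Sfmbt2, which encodes a Polycomb protein, passed the filter only through knockout hearts at 1 month and was well above background on 1 of 3 arrays in each 2-month group, so its difference is not given.

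Meg3, the maternally expressed noncoding RNA of the Dlk1 domain, which was picked after its values were seen, gave -0.55 (adjusted p = 0.035). It stood at 1.14, 0.70 and 1.08 in knockout hearts at 2 months, against 1.31, 1.46 and 1.76 at 1 month, with no overlap. Meg3 in dflox hearts was at 1.26, 0.80 and 1.01 at 2 months, against 1.56, 1.43 and 1.77 at 1 month. The call held in 10 of 23 alternatives. Among fits that left out 1 heart it held without knockout 2-month replicate 1 or 3, knockout 1-month replicate 1, dflox 2-month replicate 1 or dflox 1-month replicate 2. Between the genotypes at 2 months 2 of the 49 genes, Slc38a4 and Mkrn3, were called higher in knockout hearts, against 201 of all 18258 genes. Slc38a4, also picked after its values were seen, gave 0.67 (adjusted p = 0.0489), a call that was lost without any 1 heart other than knockout 2-month replicate 1. Mkrn3 was well above background on 3 of 3 knockout arrays and 0 of 3 dflox arrays at that age. It passed the filter only through the knockout group, where it was high, so its call is not read as a result.

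Of 25 genes of IGF and insulin signalling 19 were measured, and 1 was called lower with age and 0 higher, with a median of 0.00. Of all genes 2.61% were called lower and 1.99% higher. Stc2, which encodes a stanniocalcin that inhibits release of IGF from its binding proteins, fell by 0.71 (adjusted p = 0.00363), a call that held in all 23 alternatives. Igfbp2, a binding protein, gave 0.86 (adjusted p = 0.0966) and Socs2, a brake on growth hormone signalling, -0.39 (adjusted p = 0.0543). Pik3r1, a regulatory subunit of PI3 kinase picked after its values were seen, was called lower in knockout hearts at 2 months (-0.94, adjusted p = 0.0233) and at 1 month (-1.02, adjusted p = 0.025). With place as a term neither call held (adjusted p = 0.06 and 0.443). The 2-month call was also lost without knockout replicate 1 or 2 or dflox replicate 1 or 3 of that age, and the 1-month call without any 1 knockout heart or dflox replicate 2 or 3 of that age.

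Of 20 measured genes of a further juvenile growth list 2 were called lower with age and 0 higher, with a median of -0.29. Beside this count and those below, 2.61% of all genes were called lower and 1.99% higher. Stmn1, which encodes a tubulin-binding protein, fell by 0.69 (adjusted p = 0.0117), also in all 23 alternatives. Dpysl3, which encodes a neuronal growth protein, gave -0.51 (adjusted p = 0.0411), and its call was lost without any 1 heart other than knockout 2-month replicate 3 or dflox 2-month replicate 2 or 3. Of 26 measured cell cycle genes 15 were called lower and 0 higher, with a median of -1.05, among them Birc5 (-1.57, adjusted p = 0.00404) and Cdc20 (-1.35, adjusted p = 0.00383). The 15 include Ccnb1, which passed the filter only through the 1-month groups and was called in 7 of 22 alternatives. Of 10 fibroblast markers 4 were called lower with age and 0 higher, with a median of -0.32. These were Col1a1 (-1.15), Col3a1 (-1.03) and Col1a2 (-0.70), which encode fibrillar collagens, and Postn (-0.64), which encodes a matrix protein. The Postn call was lost without knockout 1-month replicate 1 or 3 or dflox 2-month replicate 2. Dcn (0.01), Pdgfra (-0.02), Fbln1 (-0.02), Tcf21 (-0.19), Dpt (-0.20) and Lum (-0.43), the rest of the list, named after their values were seen, were not called.

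**Figure D5:**
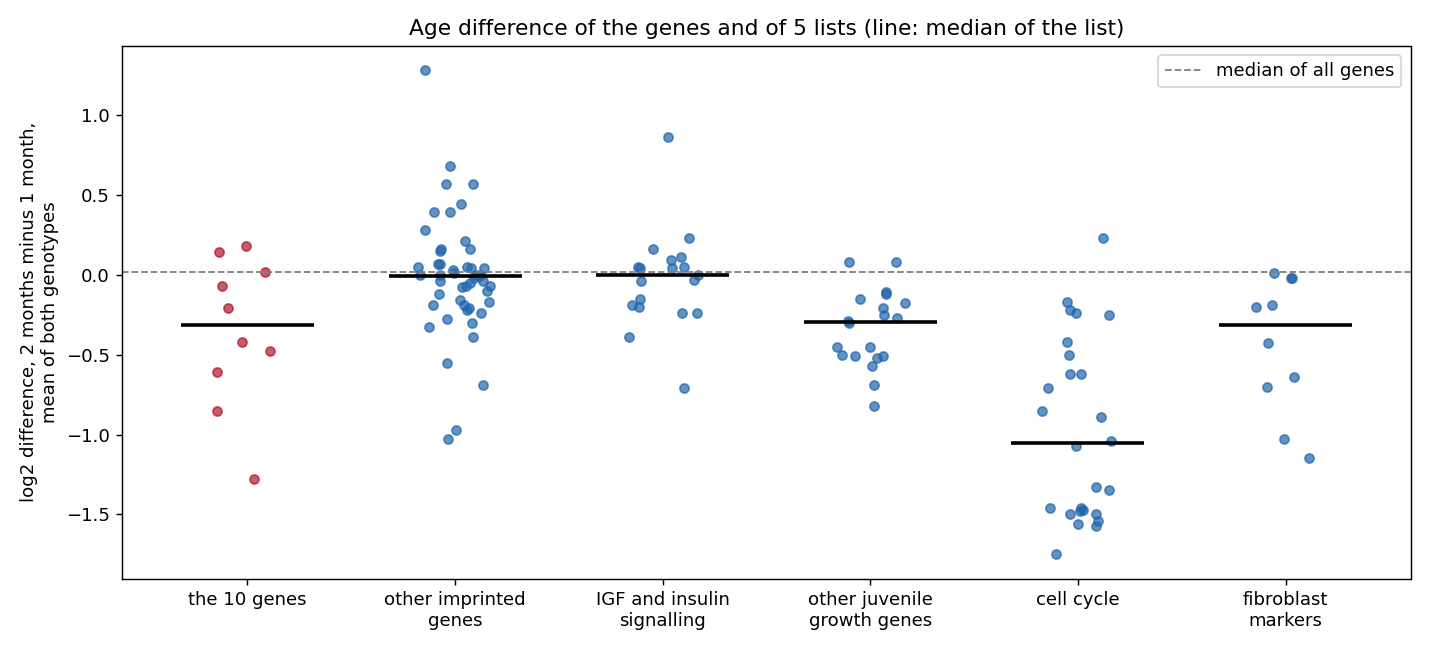
Log2 difference, 2 months minus 1 month averaged over the genotypes, 1 point per gene, for the 10 genes and 5 lists, with each list's median as a line and the median of all genes dashed. The cell cycle list sits lowest, at a median of -1.05, and the other imprinted genes centre on -0.01.

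The genes with a pattern most like Igf2 over the 12 hearts, of 17782 genes with all values, were Farp1, Mfap2 and Ddah2, with Pearson r of 0.974, 0.97 and 0.967. For Mest they were Hmgb2, Incenp and Tyms-ps, with r of 0.984, 0.981 and 0.974. After each group's mean was taken off, r was 0.593, 0.686 and 0.671 for the genes like Igf2 and 0.962, 0.952 and 0.904 for those like Mest. Among 36 pairs of 9 members with all values, Igf2 and Mest were most alike (r = 0.955, and 0.909 within groups), followed by Peg3 and Plagl1 (0.894 and 0.844). Igf2 gave 0.969 with the mean of 9 fibroblast markers and Mest 0.889, and within groups 0.613 and 0.453. Plagl1 and Peg3, not called with age, gave 0.76 and 0.744 with these markers, and within groups 0.641 and 0.26. The other members with all values gave -0.554 to 0.566, and within groups -0.392 to 0.00258. With the mean of 26 cell cycle genes Igf2 gave 0.817 and Mest 0.856, and within groups 0.567 and 0.732. Part of each r comes from the difference between the ages, and hearts share slides. Fibroblast markers had a mean level of 2.91 to 3.49 in knockout hearts at 2 months, against 3.72 to 3.80 at 1 month, and of 3.44 to 3.51 in dflox hearts at 2 months, against 3.86 to 4.10 at 1 month. The 2.91 was knockout replicate 3, with 9 of 10 markers well above background, and its mean is not over the same markers as the others. Knockout replicates 1 and 2 at 2 months stood at 3.35 and 3.49. The part of the fibroblast and cell cycle genes in the fall of Igf2 and Mest was not tested.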

How the data were processed

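RNA from whole hearts of 12 mice was labelled with Cy3 and hybridised to Agilent whole mouse genome arrays, per the labels. The deposited scanner files give each spot's processed signal, an intensity from which the scanner software had subtracted background, per the file headers. The software was Feature Extraction, version 9.5 per the submitters' processing notes and 9.5.3.1 per the file headers, which also name build mm7 for probe coordinates. The series matrix that the authors deposited repeats these intensities, with 100% of values equal. Of the transcript spots 63.7 to 71.9% per array were well above background, and the number of hearts limits the precision.

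Control and outlier spots were left out, log2 signals had each array's 75th percentile taken off, and spots of a probe were averaged. Probes well above background on all 3 arrays of a group were kept (26979 of 41174), and the brightest stood for a gene. Group means were fitted to 12 arrays with limma (version 3.58.1, under R 4.3.3), two-sided, with Benjamini-Hochberg adjustment over 18258 genes or 26979 probes. A difference of 2-fold was simulated in knockout hearts: of 50 raised genes 32 were called and of 50 lowered genes 33, among 17782 genes. All members, every probe of theirs, up to 4 genes of each list with the smallest p for age, and the 3 genes most like a called member are named. The members and lists were chosen with earlier results of these data known. Samples with the same replicate number were checked for pairing and did not move together (median r = -0.0103 over 18 pairs). The design text counts 3 mice per group. The mm7 annotation was not used here, so exons and UTRs are not given.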

Additional observations from a re-analysis of the deposited data

How the results depend on the processing

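The alternatives were quantile or median scaling, normexp background correction, no or a stricter filter, the mean of all probes, slide as a fixed or random block, place on the slide, the replicate block, the series matrix, and each of the 12 hearts left out. The 2 members called with age over both genotypes, Igf2 and Mest, were called in all 23. The series matrix, 1 of the 23, repeats the same intensities, so its fit could give no other outcome. The count in knockout hearts was 1 and became 0 under median scaling, no filter, place as a term and the replicate block, and ran from 0 to 1 when a heart was left out. The count in dflox hearts was 1 and became 0 under no filter and slide as a fixed block, and ran from 0 to 1 when a heart was left out. Igf2 then had an adjusted p of 0.0585, 0.112, 0.1 and 0.0751 in knockout hearts and of 0.0586 and 0.0684 in dflox hearts, with log2 differences from -0.89 to -0.69 and from -1.04 to -0.85 over all alternatives. The cause was not tested. The count for genotype at 1 month was 0 and ran from 0 to 1 when a heart was left out. Dlk1 was called without dflox 2-month replicate 3, a heart outside that comparison. The difference of the age effects had 0 members called throughout. Replicate numbers did not pair the samples: with the replicate block 31 genes were called with age in knockout hearts against 69, 75 against 101 in dflox hearts and 620 against 840 on average, and 3 of 12 samples correlated best with their own number. Counts over all genes ran from 4 to 83 (69) with age in knockout hearts, 3 to 175 (101) in dflox hearts, 323 to 957 (840) on average, 9 to 232 (179) for genotype at 1 month and 240 to 450 (422) at 2 months, with the reported count in parentheses. The lowest came without knockout 1-month replicate 3, without dflox 1-month replicate 1, under normexp, with place as a term and without dflox 2-month replicate 2. Median scaling moved the median of all genes with age in dflox hearts to -0.08, against 0.05, and for genotype at 2 months to 0.02, against -0.10. Genes called higher and lower were then 33 and 81 with age in dflox hearts (quantile 61 and 98, reported 56 and 45), 164 and 522 on average (reported 363 and 477), and 166 and 98 for genotype at 2 months (quantile 239 and 176, reported 201 and 221). The mean of all probes gave Grb10 an age difference of -0.34 in knockout hearts, against 0.04. Dlk1 probe 2 was not well above background on 1 array. The probe and list calls were refitted in the same way, a choice made after they were seen. Over 19 alternatives Igf2 probe 2 was called in 4 in knockout hearts, 18 in dflox hearts and 19 on average, H19 probe 2 in 7 and Grb10 probe 2 in 5. Mkrn3, which passed the filter only through knockout hearts at 2 months, gave 1.27 for genotype at that age, and -0.04 under normexp.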
